A study of Bos taurus with 16 samples.

Results

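The genes described here are 7 enzymes of cholesterol synthesis and its acetyl-CoA supply, HMGCS1, FDFT1, SQLE, FDPS, IDI1, ACAT2 and ACLY, together with SREBF1, the gene of a transcription factor of lipid synthesis. Of these 8 genes, 7 are among the 9155 genes named on a bovine Affymetrix array, and every probe set that carries 1 of these symbols alone was taken, whatever its level. IDI1 is not named in the annotation used here, so 7 genes with 13 probe sets were measured. The arrays came from 16 RNA pools of cattle: endometrium collected with a cytobrush from cows with subclinical endometritis (SE) on day 7 (3 pools), from healthy cows (HE) on day 7 (2 pools), from SE cows on day 0 (3 pools) and from HE cows on day 0 (3 pools), and blastocysts flushed on day 7 from SE cows (3 pools) and HE cows (2 pools). All 49 cows were superovulated. Day 0 brushes were taken 2 h before insemination and day 7 brushes before the uterus was flushed. A cow counted as HE when her brush held 0 polymorphonuclear cells and as SE when it held any, so SE stands for the presence of these cells and not for a defined infection. A blastocyst pool held 10 embryos. The labels do not say how many cows entered an endometrium pool, nor whether the cows of the day 7 pools were those of the day 0 pools. The replicates are pools, so a p-value measures only the spread between pools.

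Cholesterol is built from acetyl-CoA. ATP citrate lyase (ACLY) splits citrate to give cytosolic acetyl-CoA, cytosolic acetoacetyl-CoA thiolase (ACAT2) joins acetyl-CoA units, and HMG-CoA synthase (HMGCS1) adds another to make HMG-CoA. Later steps of the mevalonate pathway lead to isopentenyl diphosphate, IDI1 isomerises it, farnesyl diphosphate synthase (FDPS) assembles farnesyl diphosphate, squalene synthase (FDFT1) commits it to sterols, and squalene epoxidase (SQLE) performs the first oxygenation. SREBF1 encodes SREBP-1, 1 of the SREBP family of factors, which are held in the endoplasmic reticulum by SCAP and INSIG proteins when sterols are plentiful and are released by the proteases MBTPS1 and MBTPS2. In mouse liver SREBP-1c acts mainly on genes of fatty acid synthesis, and SREBP-2, from SREBF2, mainly on those of cholesterol synthesis. In the uterus, day 0 falls at oestrus, under oestrogen, and day 7 in the early luteal phase, under rising progesterone, and the endometrium itself responds to both hormones.

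Signals are log2 GCRMA values, a summary of each probe set's brightness after background correction, so a difference of 1 is a doubling. A level of 1 probe set says nothing about the level of another, because probes differ in brightness, and no level was set across endometrium and blastocysts. Of the 13 probe sets, 11 passed a filter of log2 above 4 on at least 2 of the 11 endometrium arrays, and all 11 did so on each day taken alone. The others, FDFT1 Bt.21724.3.A1_at (2.52 to 2.64) and SREBF1 Bt.3814.2.A1_at (1.96 to 2.02), were near the bottom of the scale on every endometrium array. In blastocysts 8 passed. Differences were tested with limma, with p-values adjusted over all probe sets that passed the filter in a tissue and called below 0.05.

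Arrays of a tissue were alike in their median signal, 4.18 to 4.30 in endometrium and 3.08 to 3.12 in blastocysts. Replicate 2 of day 0 SE stood apart from the other day 0 arrays, with a mean correlation of 0.961 to them against 0.975 to 0.979 for the others. Of 8 epithelial markers, 7 passed the filter in endometrium (KRT8 did not), and their summed log2 signal was 13.89 to 14.14 in day 7 SE, 14.15 to 14.16 in day 7 HE, 15.16 to 15.48 in day 0 SE and 15.08 to 15.28 in day 0 HE pools. Blastocysts had the 4 trophectoderm and the 3 inner cell mass or hypoblast markers that the annotation named above the filter, and 0 neutrophil or macrophage markers.

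The plainest pattern lay between the days of the cycle. HMGCS1, SQLE and ACAT2 were lower on day 7 than on day 0, by 3.14 to 7.13-fold, and SREBF1 was higher on day 7, by 4.42 to 10.4-fold, in SE and in HE endometrium. ACLY, FDPS and FDFT1 differed little between days. Between SE and HE cows no difference in these genes passed the test on either day or in blastocysts. In brush samples of mixed cells, fewer cells of a type and less RNA per cell cannot be told apart.

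**Figure D1:**
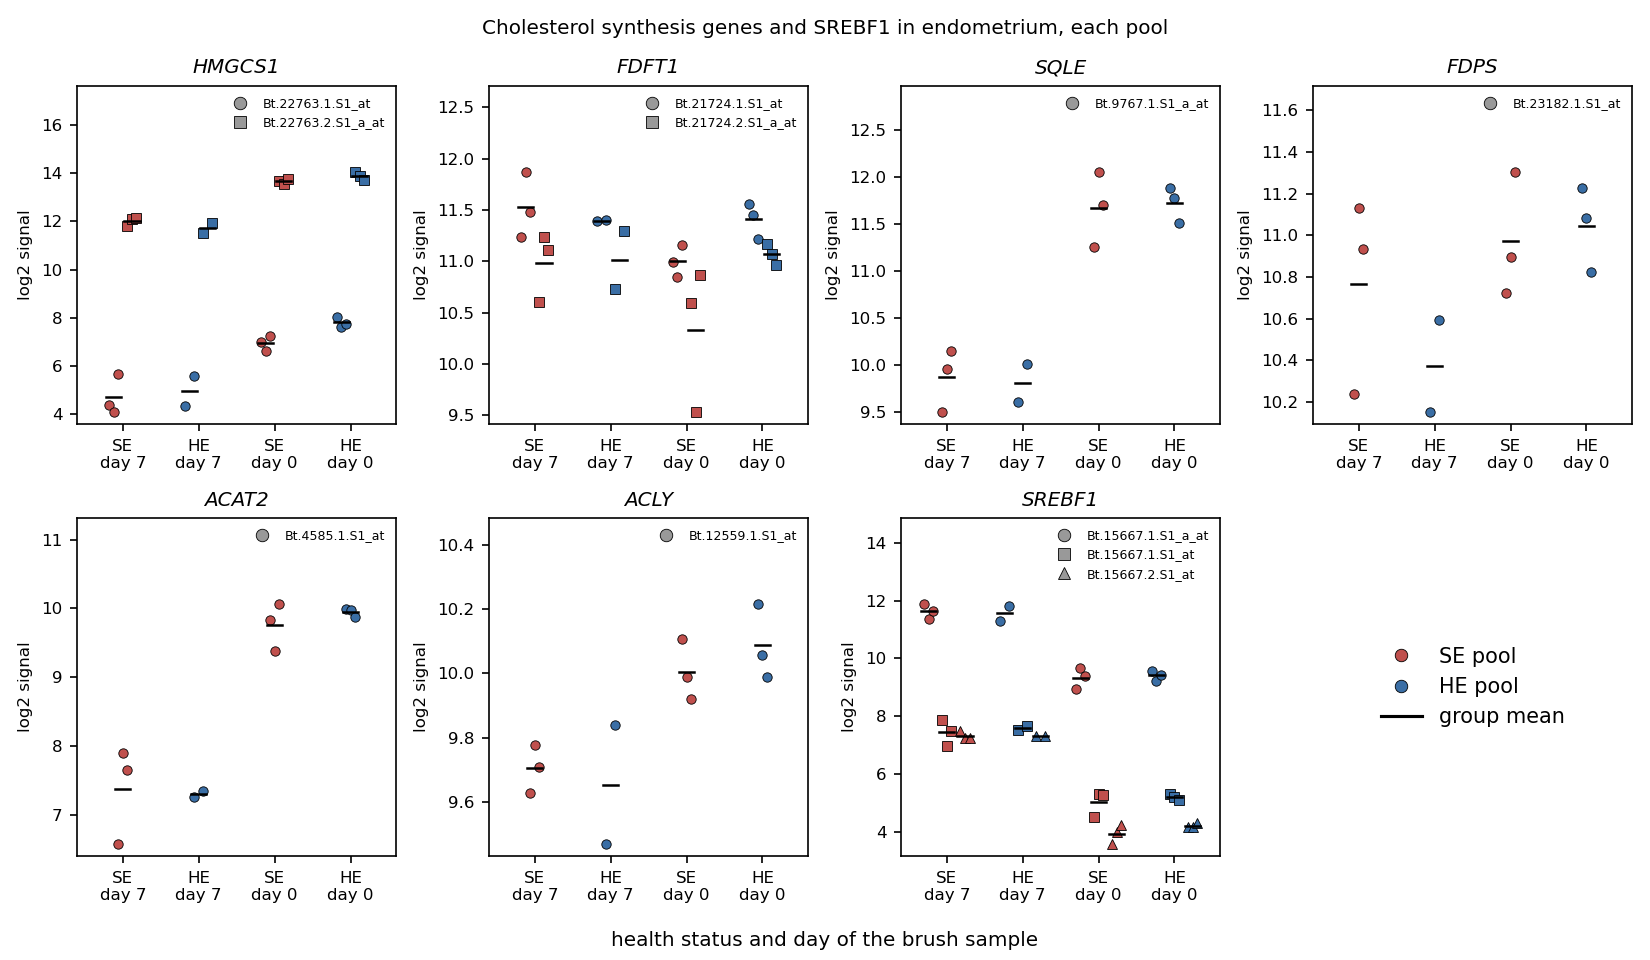
Log2 signal (vertical axis) of the 11 probe sets that passed the filter in endometrium, with 1 panel for each of 7 genes and 1 symbol for each probe set. Points are pools and black bars group means, with the groups day 7 SE, day 7 HE, day 0 SE and day 0 HE from left to right; HMGCS1, SQLE and ACAT2 sit lower on day 7, SREBF1 sits higher, and FDPS and FDFT1 overlap.

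HMGCS1, which makes HMG-CoA, was read by 2 probe sets. On Bt.22763.2.S1_a_at the SE pools had 11.80, 12.11 and 12.14 on day 7, against 13.68, 13.57 and 13.76 on day 0. The HE pools had 11.51 and 11.94 on day 7, against 14.06, 13.88 and 13.70 on day 0. Every day 7 pool lay below every day 0 pool. The day 7 level was lower by 3.14-fold in SE (log2 difference -1.65, standard error 0.16, adjusted p = 2.39e-05) and by 4.45-fold in HE (-2.15, standard error 0.18, adjusted p = 1.27e-05). The dimmer probe set, Bt.22763.1.S1_at, had 4.39, 4.10 and 5.66 in day 7 SE and 4.36 and 5.61 in day 7 HE pools, against 7.02, 6.65 and 7.24 in day 0 SE and 8.05, 7.64 and 7.77 in day 0 HE pools. Its days did not overlap either, and the day difference was -2.25 in SE (standard error 0.42, adjusted p = 0.00138) and -2.83 in HE (standard error 0.47, adjusted p = 8.09e-04). Without day 7 HE replicate 1 the HE difference was -2.21 (adjusted p = 0.0105), and without day 7 HE replicate 2 it was -3.46 (adjusted p = 0.00123). Both readings of HMGCS1 thus passed the test in both groups of cows, with the larger value on the probe set that was close to the filter on day 7.

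ACAT2, the thiolase before HMGCS1, showed the widest day gap among the enzymes with 1 probe set. Its signals were 6.57, 7.90 and 7.65 in day 7 SE pools, against 9.83, 9.38 and 10.06 in day 0 SE pools. In HE they were 7.25 and 7.34 on day 7, against 9.98, 9.98 and 9.88 on day 0. The lowest day 0 pool was above the highest day 7 pool by more than 1 log2 unit. The fall was 5.22-fold in SE (-2.38, standard error 0.31, adjusted p = 1.30e-04) and 6.29-fold in HE (-2.65, standard error 0.34, adjusted p = 1.78e-04). Among all 13421 probe sets tested, 4.12% fell as far as ACAT2 or further in SE and 3.17% in HE.

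SQLE, which oxygenates squalene, behaved like HMGCS1. It had 9.50, 9.95 and 10.14 in day 7 SE pools, against 11.25, 12.05 and 11.70 in day 0 SE pools. In HE it had 9.60 and 10.01 on day 7, against 11.89, 11.78 and 11.51 on day 0. No pool of 1 day reached those of the other. The day 7 level was 3.49-fold lower in SE (-1.80, standard error 0.24, adjusted p = 1.68e-04) and 3.79-fold lower in HE (-1.92, standard error 0.27, adjusted p = 2.97e-04).

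ACLY, a source of cytosolic acetyl-CoA, pointed the same way by far less. Its signals were 9.63, 9.78 and 9.71 in day 7 SE and 9.47 and 9.84 in day 7 HE pools, against 10.11, 9.99 and 9.92 in day 0 SE and 10.22, 10.06 and 9.99 in day 0 HE pools. The days did not overlap, yet the gap between the nearest pools was small. In SE the difference was -0.30 (standard error 0.14, adjusted p = 0.0975), which missed the threshold. In HE it was -0.43 (standard error 0.16, adjusted p = 0.0444), a call that was lost when any 1 of 4 HE pools was left out: without day 7 replicate 1 the difference was -0.25 (adjusted p = 0.318), and without day 0 replicate 1, 2 or 3 it was -0.37, -0.45 or -0.48 (adjusted p = 0.130, 0.0796 and 0.0561).

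FDPS, the branch point that also feeds protein prenylation and ubiquinone, did not pass the test. It had 10.24, 11.13 and 10.93 in day 7 SE pools, against 10.72, 10.90 and 11.30 in day 0 SE pools. The HE pools had 10.15 and 10.60 on day 7, against 11.23, 11.08 and 10.82 on day 0. In HE the day 7 pools lay below the day 0 pools, and in SE they overlapped. The differences were -0.21 in SE (standard error 0.25, adjusted p = 0.527) and -0.67 in HE (standard error 0.28, adjusted p = 0.0805). The SE value turned to 0.06 without day 7 SE replicate 1, the pool with the second lowest FDPS signal of all.

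FDFT1, squalene synthase, was the 1 enzyme with a higher value on day 7 in SE cows. Probe set Bt.21724.1.S1_at had 11.24, 11.87 and 11.48 in day 7 SE pools, against 10.995, 10.85 and 11.16 in day 0 SE pools. In HE it had 11.39 and 11.40 on day 7, against 11.56, 11.45 and 11.22 on day 0. The SE days did not overlap, while in HE both day 7 pools fell within the day 0 range. The day 7 level was 1.44-fold higher in SE (0.53, standard error 0.18, adjusted p = 0.0311) and did not pass in HE (-0.01, standard error 0.20, adjusted p = 0.961). The SE call was lost without day 7 SE replicate 2 (0.36, adjusted p = 0.108) or 3 (0.56, adjusted p = 0.0599) and without day 0 SE replicate 1 (0.53, adjusted p = 0.0694) or 2 (0.45, adjusted p = 0.0851). Probe set Bt.21724.2.S1_a_at had 10.60, 11.24 and 11.11 in day 7 SE and 10.73 and 11.30 in day 7 HE pools, against 10.60, 9.53 and 10.86 in day 0 SE and 11.17, 11.07 and 10.97 in day 0 HE pools. Its differences, 0.65 in SE (standard error 0.32, adjusted p = 0.121) and -0.06 in HE (standard error 0.36, adjusted p = 0.915), did not pass. The low pool there was day 0 SE replicate 2, the array that stood apart. Without it, 7 of the 11 probe sets of all these genes were called between days in SE, against 8 with it. Of all probe sets tested, 48.7% were called without it and 50.1% with it.

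SREBF1 was higher on day 7 on each of its 3 measurable probe sets, opposite to HMGCS1, SQLE and ACAT2. Bt.15667.1.S1_a_at, the brightest, had 11.88, 11.36 and 11.65 in day 7 SE pools, against 8.93, 9.67 and 9.40 in day 0 SE pools. In HE it had 11.30 and 11.81 on day 7, against 9.58, 9.22 and 9.43 on day 0. All day 7 pools were above all day 0 pools. The rise was 4.92-fold in SE (2.30, standard error 0.23, adjusted p = 2.29e-05) and 4.42-fold in HE (2.15, adjusted p = 1.03e-04).

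A second SREBF1 probe set, Bt.15667.1.S1_at, had 7.87, 6.97 and 7.50 in day 7 SE and 7.52 and 7.68 in day 7 HE pools, against 4.53, 5.30 and 5.26 in day 0 SE and 5.30, 5.19 and 5.10 in day 0 HE pools. It rose by 2.42 in SE (standard error 0.26, adjusted p = 3.58e-05) and by 2.40 in HE (standard error 0.29, adjusted p = 1.07e-04). Bt.15667.2.S1_at had 7.51, 7.24 and 7.23 in day 7 SE and 7.32 and 7.31 in day 7 HE pools, against 3.58, 4.01 and 4.23 in day 0 SE and 4.17, 4.17 and 4.31 in day 0 HE pools. On day 0 it was close to the filter of 4, near the bottom of the scale. It was 10.4-fold higher on day 7 in SE (3.38, standard error 0.17, adjusted p = 3.79e-07) and 8.56-fold higher in HE (3.10, standard error 0.19, adjusted p = 1.81e-06). Of all probe sets tested, 1.98% rose as far or further in SE and 2.53% in HE.

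**Figure D2:**
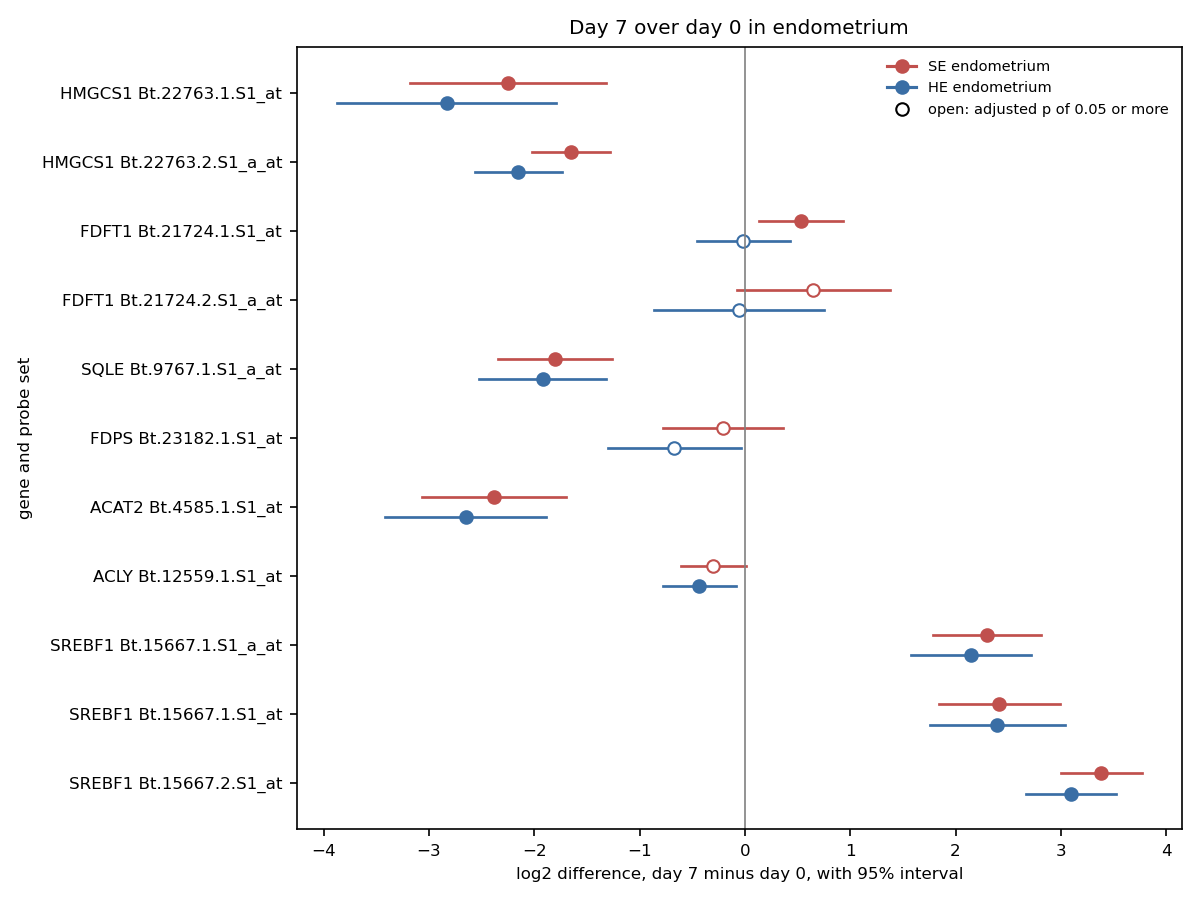
Log2 difference of day 7 over day 0 for each probe set of the 7 measured genes, in SE and in HE endometrium, with 95% intervals as lines and open symbols for values that did not pass the test. Values below 0 are lower on day 7; SREBF1 lies between 2.15 and 3.38, HMGCS1, SQLE and ACAT2 between -2.83 and -1.65, and ACLY, FDPS and FDFT1 between -0.67 and 0.65.

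These counts stand against a large background of change between the days. In SE endometrium 8 of the 11 probe sets passed the test, 4 higher and 4 lower, where 50.1% of all probe sets passed, 26.0% higher and 24.1% lower. In HE endometrium 8 of 11 passed, 3 higher and 5 lower, where 45.0% of all passed, 21.8% higher and 23.2% lower. The pools of the days did not overlap for 9 of 11 in SE and 9 of 11 in HE, against 57.9% and 68.4% of all probe sets. The median difference of the 11 was -0.21 in SE and -0.43 in HE, against 0.01 and -0.03 over all probe sets. The share of 72.7% in each group of cows is to be read against those over all probe sets, and the 11 stand for only 7 genes, since probe sets of 1 gene share its RNA.

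Each measured enzyme was also ordered over the 4 groups by its mean. HMGCS1 Bt.22763.2.S1_a_at, SQLE, ACAT2 and ACLY ran day 0 HE, day 0 SE, day 7 SE and day 7 HE from high to low; neighbours within a day overlapped and the step between days did not. HMGCS1 Bt.22763.1.S1_at ended with day 7 HE above day 7 SE, which overlapped, and its day 0 HE pools lay above its day 0 SE pools without overlap. For SREBF1 both day 7 groups lay above both day 0 groups without overlap, and groups of 1 day overlapped on all 3 probe sets. The order of FDPS had no gap between neighbours that was free of overlap. For FDFT1 Bt.21724.1.S1_at the 1 such gap was between day 7 HE and the lowest group, day 0 SE.

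Pools of 1 group tended to be low or high for several enzymes together. Day 7 SE replicate 1 was the lowest of its 3 pools on 7 of 8 enzyme probe sets and the highest on all 3 SREBF1 probe sets, while it was the lowest on 39.9% and the highest on 32.4% of all probe sets. Day 7 HE replicate 1 was the lower of its pair on 8 of 8 enzyme probe sets, against 49.2% of all. Day 0 HE replicate 1 was the highest on 8 of 8, against 33.6% of all, and day 0 HE replicate 3 the lowest on 7 of 8, against 32.0% of all. These ranks are a description of single pools; no test was made of them.

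Markers of cell types moved between the days too. Of the 7 epithelial markers, 6 were lower and 1 higher on day 7 in SE, and 4 lower and 1 higher in HE. KRT18 differed by -2.61 in SE and -2.16 in HE, KRT19 by -2.65 and -1.74, and EPCAM by -0.91 and -0.99. The 1 called higher was CDH1, which rose by 0.62 in SE and 1.48 in HE. A second CDH1 probe set was called in HE (1.43) and not in SE (0.54). Of 9 neutrophil markers, 4 passed the filter, while MMP9 and FCGR3A had probe sets below it. Their summed signal was 8.19 to 9.75 in day 7 SE, 7.61 to 9.90 in day 7 HE, 11.98 to 14.53 in day 0 SE and 10.39 to 12.10 in day 0 HE pools, and 1 of them, S100A12, was called lower on day 7 in each group of cows. Of 8 lymphocyte markers 6 passed and gave 9.01 to 12.37 in day 7 SE, 10.53 to 11.26 in day 7 HE, 11.23 to 12.03 in day 0 SE and 9.72 to 10.34 in day 0 HE pools, with 3 called higher on day 7 in each. CLDN5, the 1 endothelial marker above the filter, was 4.90 to 6.24 in day 7 SE and 6.01 to 7.20 in day 7 HE pools, against 2.37 to 2.42 in day 0 SE and 2.35 to 2.41 in day 0 HE pools, so that it passed through day 7 alone. The 3' minus 5' signal of the GAPDH control, a sign of RNA quality, was 0.22 to 0.57 in day 7 SE and 0.27 to 0.39 in day 7 HE, against 0.03 to 0.58 in day 0 SE and 0.06 to 0.14 in day 0 HE pools. The actin control was lower on day 7 without overlap, at -0.477 to -0.441 in SE and -0.4467 to -0.4435 in HE. On day 0 it was -0.433 to -0.418 in SE and -0.4424 to -0.3428 in HE. EF1A was apart in HE alone (-3.06 to -2.94 on day 7, -3.27 to -3.11 on day 0). GST was apart in SE alone (-1.58 to -1.10 on day 7, -2.19 to -1.59 on day 0). Cyclophilin and eIF-4E overlapped between days in both. The part of these markers and of RNA quality in the differences of the enzymes and SREBF1 was not tested.

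The other enzymes of cholesterol synthesis did not move as a block. Of the 19 listed names, 11 had a probe set that passed the filter, counting MSMO1 once (SC4MOL is its older name). On day 7, 3 were called higher and 2 lower in SE, and 2 higher and 4 lower in HE, where 26.0% of all probe sets were higher and 24.1% lower in SE, and 21.8% higher and 23.2% lower in HE. The medians were -0.02 in SE and -0.27 in HE. PMVK, phosphomevalonate kinase, had the largest change: 6.98 ± 0.084 in day 7 SE against 9.12 ± 0.40 in day 0 SE pools, and 6.78 ± 0.011 in day 7 HE against 9.66 ± 0.20 in day 0 HE pools (mean ± SD). Its difference was -2.14 in SE (adjusted p = 1.45e-05) and -2.88 in HE (adjusted p = 6.40e-06), much like HMGCS1 and ACAT2. EBP, a sterol isomerase of the later steps, fell, with differences of -0.92 in SE and -0.89 in HE.

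Later sterol enzymes were among those that rose. TM7SF2, a sterol C14 reductase, was higher on day 7 by 1.13 in SE and 1.02 in HE, and NSDHL, which takes part in removing the C4 methyl groups, by 0.79 in SE and 0.81 in HE. MSMO1, a methylsterol monooxygenase, passed in SE (0.66, adjusted p = 0.0195) and not in HE (0.42, adjusted p = 0.157). DHCR7, which makes the last reduction to cholesterol in one branch, passed in HE (-0.81, adjusted p = 0.0177) and not in SE (-0.40, adjusted p = 0.138), as did MVK, mevalonate kinase (-1.07, adjusted p = 0.0318, in HE and -0.64, adjusted p = 0.118, in SE). For none of these did the difference between SE and HE pass. CYP51A1, GGPS1, MVD and LSS were not called in either group of cows, although a second LSS probe set was, in HE (-0.82, adjusted p = 0.0466).

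**Figure D3:**
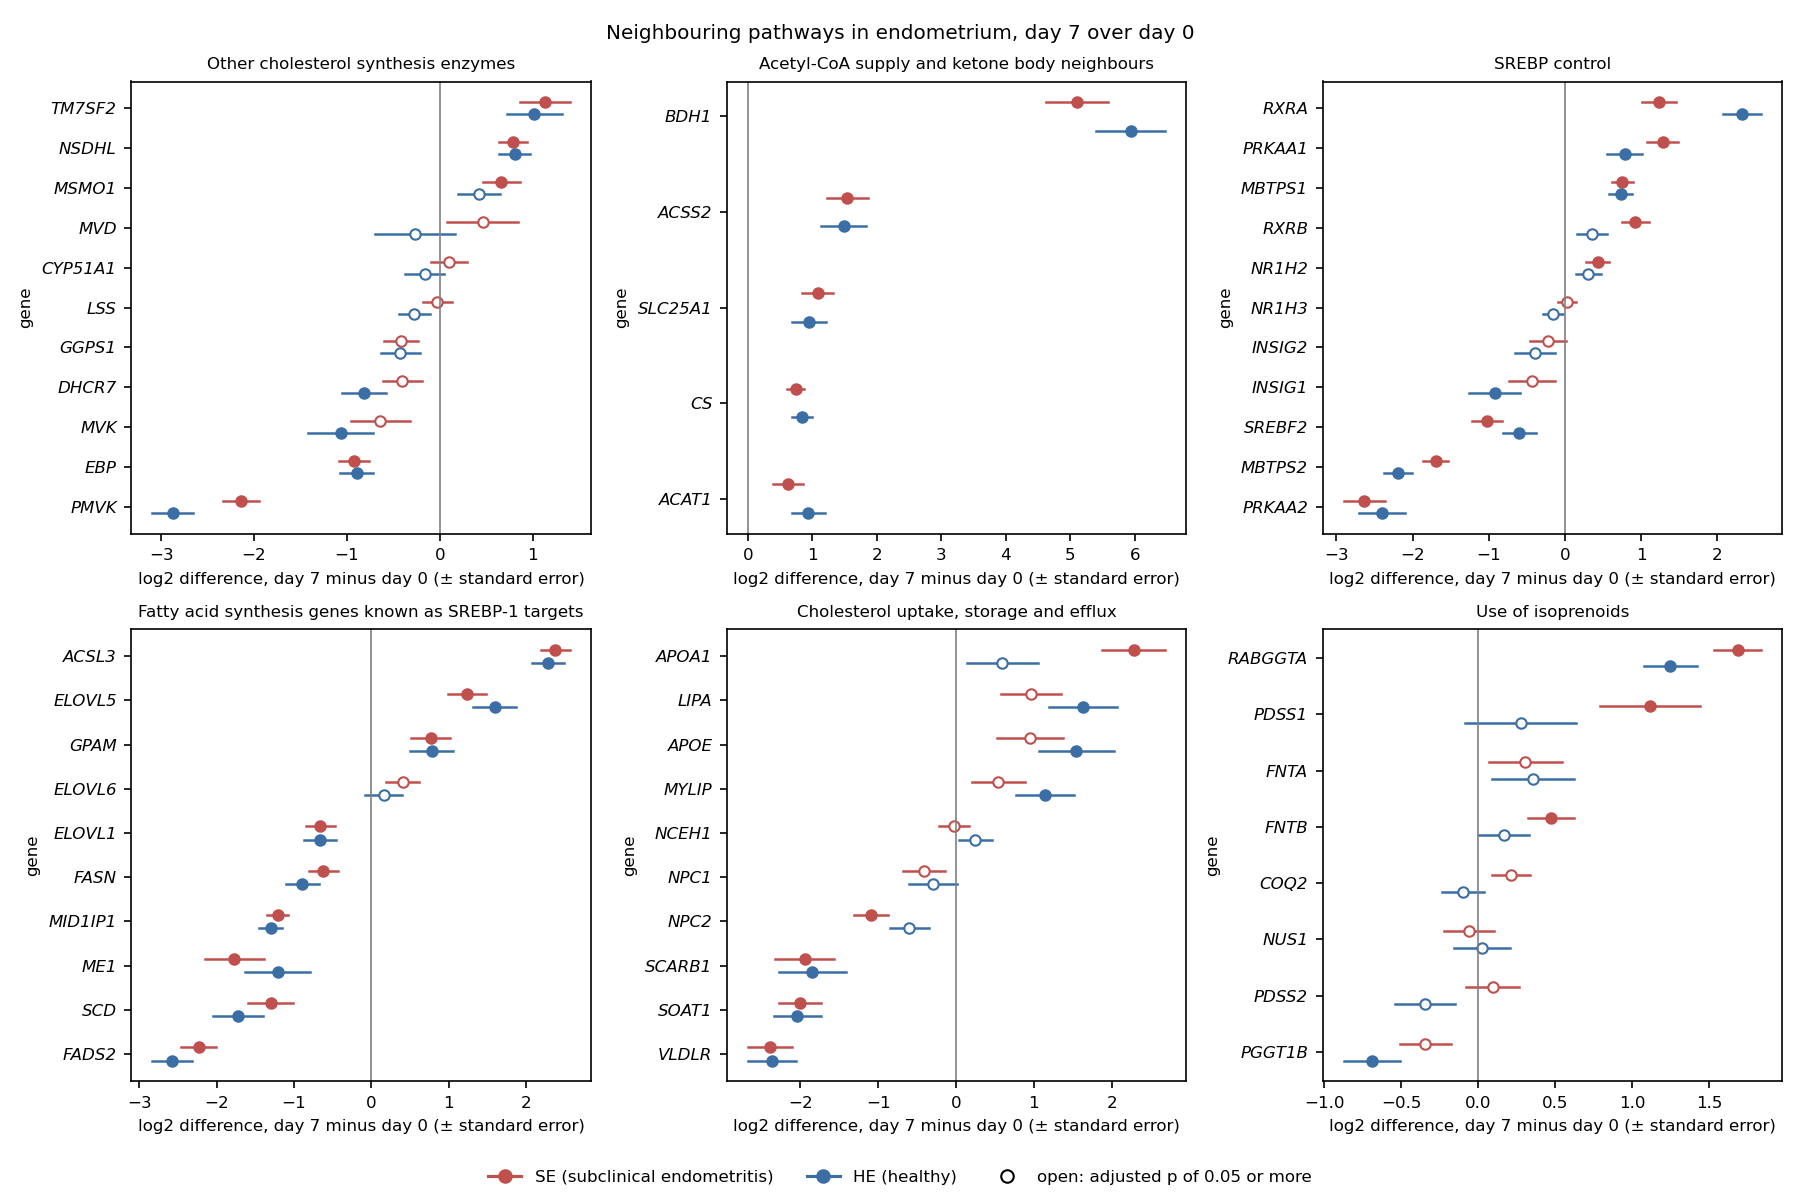
Log2 difference of day 7 over day 0 for the measured genes of the 6 pathway lists, in SE and in HE endometrium, with lines of 1 standard error to each side; filled symbols passed limma's test at an adjusted p below 0.05. PMVK lies at -2.14 and -2.88 and BDH1 at 5.11 and 5.93, in SE and in HE in that order; PRKAA2, NR1H3 and APOA1 passed the filter through 1 day alone.

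Genes that control SREBP were split. Of 11 that passed the filter, PRKAA2 and NR1H3 did so through day 0 alone. They are left out of the counts, since such a gene may pass because it differs. PRKAA2 was above the filter on 0 arrays of day 7 and 6 of day 0, and NR1H3 on 1 and 2. Of the other 9, 5 were called higher and 2 lower on day 7 in SE (26.0% and 24.1% of all probe sets), and 3 higher and 3 lower in HE (21.8% and 23.2% of all). SREBF2, the gene of SREBP-2, had 4.68 ± 0.19 in day 7 SE against 5.71 ± 0.35 in day 0 SE pools, and 4.97 ± 0.092 in day 7 HE against 5.57 ± 0.18 in day 0 HE pools. It fell, with differences of -1.02 in SE (adjusted p = 0.00145) and -0.60 in HE (adjusted p = 0.0437), opposite in direction to SREBF1; the HE call was lost without any 1 of the 5 HE pools. MBTPS2, the site 2 protease, was lower (-1.70 in SE and -2.19 in HE), while MBTPS1, the site 1 protease, was higher by 0.75 in SE and 0.73 in HE. INSIG1, which retains SREBP in the endoplasmic reticulum, passed in HE alone (-0.92, adjusted p = 0.0470, against -0.44, adjusted p = 0.252, in SE), and the difference between SE and HE did not pass. RXRA, partner of the liver X receptors that induce SREBF1 in mouse liver, was higher by 1.23 in SE and 2.32 in HE. PRKAA1, a catalytic subunit of AMP-activated kinase, was higher by 1.28 in SE and 0.79 in HE. PRKAA2, the other, had 2.31 ± 0.031 in day 7 SE and 2.55 ± 0.071 in day 7 HE pools, below the filter, against 4.95 ± 0.44 in day 0 SE and 4.95 ± 0.52 in day 0 HE pools. RXRB (0.92 in SE, 0.35 in HE) and NR1H2 (0.43 in SE, 0.31 in HE) passed in SE alone, and the difference between SE and HE did not pass.

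Known SREBP-1 targets of fatty acid synthesis were called in both directions on day 7. Of 10 that passed the filter, 3 were called higher and 6 lower on day 7 in SE, and again 3 higher and 6 lower in HE, beside 26.0% higher and 24.1% lower of all probe sets in SE and 21.8% and 23.2% in HE. The medians were -0.64 in SE and -0.78 in HE. FASN, fatty acid synthase, had 10.95 ± 0.17 in day 7 SE against 11.57 ± 0.18 in day 0 SE pools, and 10.74 ± 0.32 in day 7 HE against 11.63 ± 0.26 in day 0 HE pools, and it fell (-0.62 in SE and -0.89 in HE). The desaturases FADS2 (-2.23 in SE and -2.58 in HE) and SCD (-1.30 and -1.72) fell further, as did ME1 (-1.77 and -1.21), which makes NADPH, and MID1IP1 (-1.21 and -1.30), which acts on acetyl-CoA carboxylase; ELOVL1 differed by -0.66 in both. ACSL3, which activates fatty acids, rose by 2.38 in SE and 2.28 in HE, ELOVL5, an elongase, by 1.23 and 1.59, and GPAM, which starts glycerolipid synthesis, by 0.77 and 0.78. ELOVL6 did not pass.

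All 5 measured neighbours of acetyl-CoA supply and ketone bodies were called higher on day 7, in SE and in HE, as were 26.0% and 21.8% of all probe sets. BDH1, which interconverts the ketone bodies, had 10.31 ± 0.34 in day 7 SE against 5.20 ± 1.17 in day 0 SE pools, and 10.54 ± 0.44 in day 7 HE against 4.60 ± 0.25 in day 0 HE pools. That was 34.4-fold in SE (adjusted p = 1.66e-05) and 61.1-fold in HE (adjusted p = 1.81e-05). Without day 0 SE replicate 1 the SE difference was 5.78, against 5.11 with it. ACSS2, which makes cytosolic acetyl-CoA from acetate, was higher by 1.54 in SE and 1.48 in HE, SLC25A1, the citrate carrier, by 1.08 and 0.94, the mitochondrial thiolase ACAT1 by 0.63 and 0.94, and citrate synthase (CS) by 0.74 and 0.84. A second CS probe set was called in SE (1.13, adjusted p = 0.0268) and not in HE (0.74, adjusted p = 0.170). ACAT1 and ACAT2, thiolases of mitochondria and cytosol, thus differed between days in opposite directions. The ACAT1 call in SE was weak, since it was lost in 9 of 13 alternatives, where its difference ranged from 0.53 to 0.71.

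Of 10 genes of cholesterol uptake, storage and efflux that passed the filter, APOA1 did so through day 7 alone and is left out of the counts. Of the other 9, 0 were called higher and 4 lower on day 7 in SE (26.0% and 24.1% of all probe sets), and 3 higher and 3 lower in HE (21.8% and 23.2% of all). VLDLR, a lipoprotein receptor, was lower (-2.39 in SE and -2.36 in HE) on the probe set of higher mean; a second VLDLR probe set was not called in SE (-0.89, adjusted p = 0.0610) and was in HE (-1.93, adjusted p = 0.00321). SOAT1, which esterifies cholesterol for storage, was lower as well (-2.01 and -2.04), and so was SCARB1, the HDL receptor (-1.94 and -1.85). NPC2, which moves cholesterol out of lysosomes, fell in SE, where its test alone passed (-1.10, adjusted p = 0.00214, against -0.60, adjusted p = 0.0712, in HE). Called higher in HE were LIPA (1.63), APOE (1.55) and MYLIP (1.15). APOA1, an apolipoprotein of HDL, had 4.72 ± 1.05 in day 7 SE and 3.16 ± 0.36 in day 7 HE pools, against 2.44 ± 0.071 in day 0 SE and 2.57 ± 0.063 in day 0 HE pools. Without day 7 HE replicate 2 the APOE value was 0.97 (adjusted p = 0.216). Among 8 genes that use isoprenoids, 3 were higher in SE (RABGGTA 1.69, PDSS1 1.12 and FNTB 0.47), and in HE 1 was higher (RABGGTA 1.25) and 1 lower (PGGT1B -0.69); 26.0% of all probe sets were higher in SE, and 21.8% higher and 23.2% lower in HE.

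Over these 6 lists, without the 3 genes that passed the filter through 1 day alone, 33 of 52 genes (63.5%) were called in SE, against 50.1% of all probe sets, and 34 of 52 (65.4%) in HE, against 45.0% of all. The bases differ, since a list gene was read by its probe set of highest mean and the shares count every probe set. With probe sets averaged by gene, 53.9% of all genes were called in SE and 48.8% in HE. Single list genes were not followed under probe set averaging. Under every other alternative tried, 25 of the SE calls and 17 of the HE calls were kept, on the probe set of highest mean. Among those kept in both were PMVK, EBP, NSDHL, MBTPS1, MBTPS2, FADS2, SCD, ACSL3, BDH1, CS, VLDLR, SOAT1 and SCARB1. The HE calls of MVK, DHCR7, TM7SF2, SREBF2, INSIG1, PRKAA1, FASN, ME1, ELOVL1, GPAM, ACAT1, ACSS2, SLC25A1, LIPA, APOE, MYLIP and PGGT1B were lost in at least 1 alternative, as were the SE calls of MSMO1, NR1H2, FASN, ELOVL1, GPAM, ACAT1, PDSS1 and FNTB. Leaving out day 7 HE replicate 1 or 2 ended 12 HE calls each, and day 0 HE replicate 1, 2 or 3 ended 8, 9 and 3. Leaving out day 7 SE replicate 1, 2 or 3 ended 4, 2 and 7 SE calls, and day 0 SE replicate 1, 2 or 3 ended 4, 5 and 5.

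Genes whose signal ran most like HMGCS1 Bt.22763.2.S1_a_at over the 11 endometrium arrays were FARP1 (Pearson r = 0.994), HKDC1 (0.991), NEDD4L (0.991), TMEM92 (0.991) and CD320 (0.990). For SREBF1 Bt.15667.1.S1_a_at they were DCAF17 (0.992), GLUD1 (0.989), ACSS1 (0.989), KIF21A (0.988) and SLC30A5 (0.988). The arrays fall into the 2 days, so these values largely restate the gap between days.

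The comparison of SE with HE cows asked whether uterine inflammation without clinical signs goes with a change in these genes. On day 0, all 11 probe sets had a lower mean in SE than in HE, by -0.06 to -0.85, with a median of -0.19 against -0.06 over all probe sets, 5215 of 13421 of which were positive. None was called, with adjusted p between 0.650 and 0.975, where limma called 0.0224% of all probe sets and 7.6% had an unadjusted p below 0.05. Of the 11, 2 had an unadjusted p below 0.05, and 3 had pools that did not overlap, against 12.8% of all probe sets.

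Those 3 were the dim HMGCS1 probe set and both FDFT1 probe sets, whose values are given above. FDFT1 Bt.21724.1.S1_at averaged 11.0003 ± 0.15 in day 0 SE and 11.41 ± 0.17 in day 0 HE pools (SD). Its difference was -0.41, with a 95% interval from -0.81 to -0.01 and an unadjusted p of 0.0446 (adjusted p = 0.650). FDFT1 Bt.21724.2.S1_a_at averaged 10.33 ± 0.70 in SE and 11.07 ± 0.10 in HE, a difference of -0.74 (unadjusted p = 0.0461, adjusted p = 0.656), with SE replicate 2 at 9.53 pulling the mean down: without it the difference was -0.34. HMGCS1 Bt.22763.1.S1_at averaged 6.97 ± 0.30 in SE and 7.82 ± 0.21 in HE, a difference of -0.85 (adjusted p = 0.674). The brighter HMGCS1 probe set overlapped, with 13.67 ± 0.09 in SE and 13.88 ± 0.18 in HE and a difference of -0.21 (adjusted p = 0.790).

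**Figure D4:**
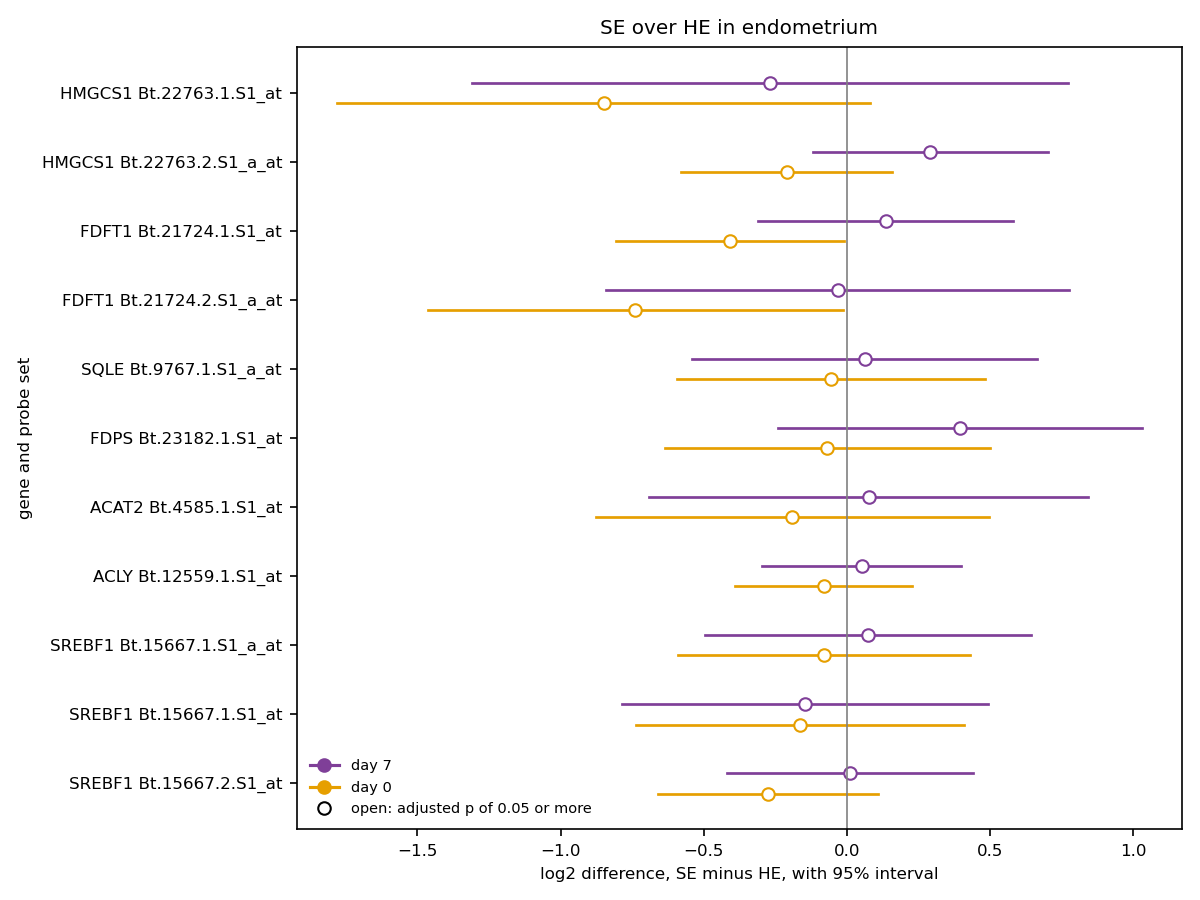
Log2 difference of SE over HE with its 95% interval for each probe set of the 7 measured genes, in endometrium of day 7 and of day 0, with open symbols for values that did not pass the test (all 11 on both days). On day 7 the 11 points lie between -0.27 and 0.39, and on day 0 all lie below 0, from -0.85 to -0.06.

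Summed marker signals of several other cell types were higher in SE than in HE pools on day 0, although 0 of the single markers was called. The summed signal of the 8 stromal markers, all above the filter, was 13.26 to 13.76 in SE and 11.81 to 13.20 in HE pools, that of 6 of 8 macrophage and dendritic cell markers 9.28 to 10.50 in SE and 8.83 to 9.20 in HE, and that of 3 of 6 ciliated cell markers 9.19 to 10.60 in SE and 7.83 to 8.79 in HE. The 6 lymphocyte markers gave 11.23 to 12.03 in SE and 9.72 to 10.34 in HE, with a median difference of 0.06. Only the neutrophil sums overlapped among these 5 lists, at 11.98 to 14.53 in SE and 10.39 to 12.10 in HE. All 4 neutrophil markers had a higher mean in SE, with a median difference of 2.59, and neutrophils are polymorphonuclear cells, whose presence defined SE. Their part in the lower means of SE on day 0 was not tested.

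On day 7 the means of SE were higher than those of HE for 8 probe sets and lower for 3, from -0.27 (HMGCS1 Bt.22763.1.S1_at) to 0.39 (FDPS), with a median of 0.06 against 0.00 over all. The pools overlapped for all 11, while they did not for 16.3% of all probe sets. limma called 0% of all probe sets on day 7, and 3.55% had an unadjusted p below 0.05, 0 of them among the 11. The FDPS pools were 10.24, 11.13 and 10.93 in SE, against 10.15 and 10.60 in HE.

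Whether the day difference itself depended on status was asked with the interaction, the SE day difference minus the HE day difference. It was positive for all 11 probe sets, as for 7851 of all 13421, from 0.02 (SREBF1 Bt.15667.1.S1_at) to 0.71 (FDFT1 Bt.21724.2.S1_a_at), with a median of 0.29 against 0.06. The values of smallest p were 0.54 for FDFT1 Bt.21724.1.S1_at (standard error 0.27, unadjusted p = 0.0695) and 0.50 for HMGCS1 Bt.22763.2.S1_a_at (standard error 0.25, unadjusted p = 0.0702). None of the 11 was called (adjusted p = 1.00 for each), nor was any probe set on the array (0%), and 3.92% of all had an unadjusted p below 0.05. SE and HE endometrium thus were not shown to differ in how these genes changed over the cycle, and this design with 2 or 3 pools a group leaves wide intervals.

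The pathway lists showed the same in the status comparisons: 0 genes of any list were called for SE over HE on either day, in the interaction or in blastocysts. On day 0, 4 of the 11 other cholesterol enzymes had a higher mean in SE (median -0.11), as did 5215 of all 13421 probe sets. On day 7 all 11 did (median 0.16), as did 6780 of all 13421. In the other lists on day 7 it was 2 of 10 uptake, storage and efflux genes, 5 of 10 fatty acid genes and 3 of 5 acetyl-CoA neighbours. It was also 7 of 11 SREBP control genes and 7 of 8 genes that use isoprenoids. No test was made of these counts, and the genes were read on the same pools. PMVK had the smallest p of the other cholesterol enzymes on day 0, at 9.12 ± 0.40 in SE and 9.66 ± 0.20 in HE pools (difference -0.53, adjusted p = 0.610). MBTPS2 (-0.49) and RXRA (0.65) had the smallest p among the SREBP control genes on day 0 (adjusted p = 0.608 for each).

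**Figure D5:**
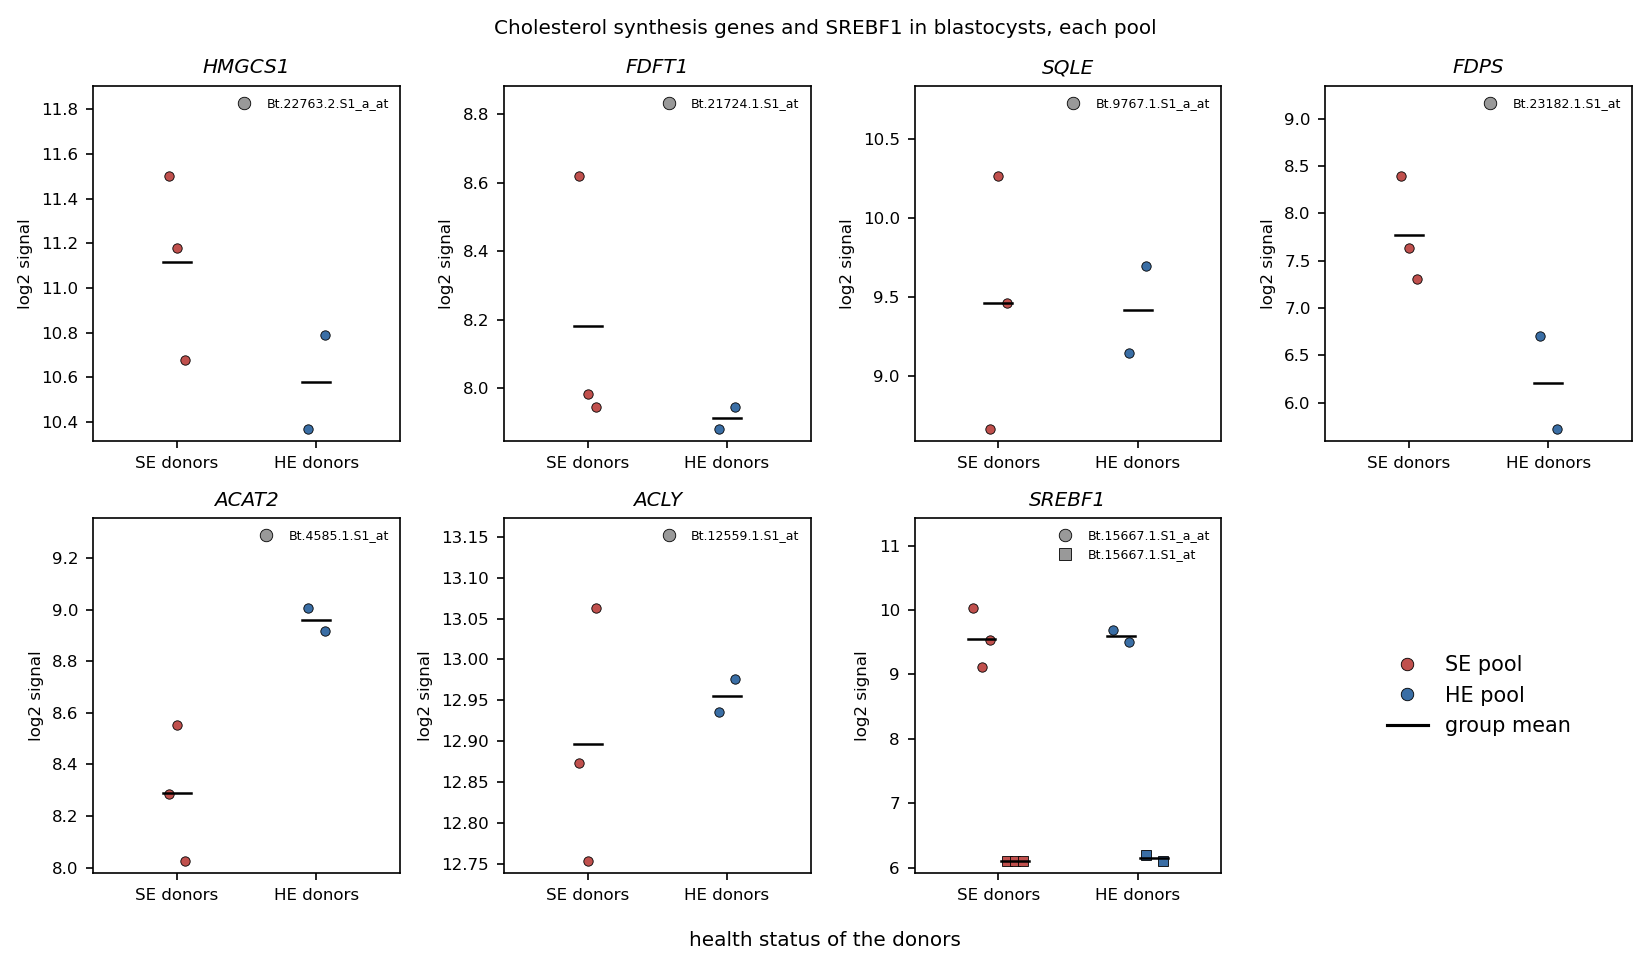
Log2 signal (vertical axis) of the 8 probe sets that passed the filter in blastocysts, with 1 panel for each gene, the 3 SE pools on its left and the 2 HE pools on its right, and group means as black bars. The pools are apart for ACAT2, with SE below HE, and for FDPS, with SE above HE, and overlap for the other genes.

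In blastocysts, ACAT2 and FDPS were the genes whose SE and HE pools were apart. ACAT2 had 8.29, 8.55 and 8.03 in SE pools, against 9.01 and 8.92 in HE pools. The difference was -0.67 (standard error 0.20, unadjusted p = 0.0224, adjusted p = 0.444). FDPS had 8.39, 7.63 and 7.30 in SE pools, against 6.70 and 5.72 in HE pools. It averaged 7.78 ± 0.56 in SE and 6.21 ± 0.69 in HE, a difference of 1.57 or 2.96-fold (95% interval 0.32 to 2.81, unadjusted p = 0.0239, adjusted p = 0.457). The 2 genes lay on opposite sides, and neither passed the test. limma called 0% of all 11014 probe sets in blastocysts, 9.34% had an unadjusted p below 0.05, and the pools of 25.0% did not overlap, against 2 of these 8.

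The other blastocyst values overlapped. HMGCS1 Bt.22763.2.S1_a_at had 11.50, 11.18 and 10.67 in SE pools, against 10.37 and 10.79 in HE pools (difference 0.54, adjusted p = 0.603). SQLE spread widely, with 8.66, 10.26 and 9.46 in SE and 9.14 and 9.70 in HE pools (0.04). ACLY was steady at 12.87, 12.75 and 13.06 in SE and 12.94 and 12.98 in HE pools (-0.06). FDFT1 Bt.21724.1.S1_at had 8.62, 7.98 and 7.95 in SE and 7.88 and 7.95 in HE pools (0.27), and SREBF1 Bt.15667.1.S1_a_at had 10.03, 9.11 and 9.53 in SE and 9.69 and 9.51 in HE pools (-0.04). SREBF1 Bt.15667.1.S1_at read 6.11 in all 3 SE pools and in HE replicate 2, to the last digit given, and 6.20 in HE replicate 1, so it carried hardly any information there. The second HMGCS1 probe set, Bt.15667.2.S1_at and Bt.3814.2.A1_at of SREBF1 and Bt.21724.3.A1_at of FDFT1 stood at the lowest blastocyst value, 2.20, in every pool. The remaining FDFT1 probe set did so in all pools except HE replicate 1 (3.40).

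Of 6 RNA quality controls, 2 had blastocyst groups that were apart. The 3' minus 5' signal of the GAPDH control was 5.47 to 5.85 in SE and 4.97 to 5.11 in HE pools, and that of the EF1A control 2.07 to 2.36 in SE and 1.41 to 2.03 in HE pools. The groups overlapped for actin (3.83 to 4.03 in SE and 3.61 to 4.72 in HE), cyclophilin (4.90 to 5.24 in SE and 4.91 to 4.997 in HE) and eIF-4E (10.70 to 11.16 in SE and 10.69 to 10.94 in HE), and the GST control was equal in all pools. Of 8 lymphocyte markers 2 passed the filter in blastocysts, and their summed signal was 7.88 to 8.37 in SE and 5.16 to 7.02 in HE pools. Only 1 of the 2 had a higher mean in SE, and 0 were called. CD3D, CD3E, CD2, CD8A, JCHAIN and MS4A1 had probe sets below the filter, so the sum does not show lymphocytes in these pools. The part of the RNA quality controls and these markers in the FDPS and ACAT2 values was not tested. Of the other cholesterol enzymes 6 of 8 had a higher mean in SE blastocysts (median 0.22), as did 8 of 10 fatty acid genes (median 0.27). So did 3 of 3 acetyl-CoA neighbours (0.32), 4 of 7 genes that use isoprenoids (0.04) and 3 of 7 SREBP control genes (-0.02). Of the uptake, storage and efflux genes 4 of 9 did (-0.08). None of these genes was called. Of all probe sets, 5668 of 11014 were higher in SE, with a median of 0.01, and the median of the 8 described here was 0.00.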

How the data were processed

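RNA of 16 pools was measured on Affymetrix bovine arrays after 2 rounds of amplification from 15 ng and biotin labelling. The deposited values are log2 signals that the authors made with GCRMA; GCRMA and limma are listed without versions in the submitters' processing notes. Scans were not used. The sources used here do not say whether endometrium and blastocysts were normalized together. The table held 24128 probe sets, of which 112 controls were left out of tests; 13292 carried exactly 1 symbol in the platform annotation. All 13 probe sets of the genes described kept the same symbol in a RefSeq gene table. Without a genome of the array's build, no coordinates or sequences are printed.

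Tests were run with limma 3.58.1 in R 4.3.3, and plots drawn in Python 3.11.15 with pandas 2.3.3 and matplotlib 3.10.9. Probe sets above log2 4 on at least 2 arrays of a tissue were kept (13421 of endometrium, 11014 of blastocysts). The moderated test of limma, two-sided, with Benjamini-Hochberg adjustment over all kept probe sets, was run on 11 endometrium arrays in 1 fit and 5 blastocyst arrays in another, and was tested on simulated data. HE blastocyst replicates 1 and 2 carry pool numbers 2 and 3. Endometrium pools of the same replicate number did not deviate together (correlations -0.27 to 0.24). Blastocyst arrays were matched by replicate number (0.11 and 0.09), so blastocyst pools of the same pool number were not compared. No pairing was used. Precision is limited by the number of arrays. Genes, lists and tests were chosen with earlier results of these data known. All probe sets of the genes described are given; each list gene was read by its kept probe set of highest mean and named where called, with at most 2 others of smallest p per list and comparison. Alternatives changed the filter, normalization, variance trend, array weights, replicate block, arrays in the fit, probe set averaging, or left out 1 pool.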

Additional observations from a re-analysis of the deposited data

How the results depend on the processing

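The day calls of HMGCS1, SQLE, ACAT2 and SREBF1 were kept in all 12 alternatives in HE and all 13 in SE that followed single probe sets. Differences for HMGCS1 Bt.22763.2.S1_a_at were -1.71 to -1.54 in SE and -2.37 to -1.94 in HE. Those for the dimmer Bt.22763.1.S1_at ranged more widely, from -2.73 to -1.94 in SE and from -3.46 to -2.21 in HE. Averaging the probe sets of a gene left fewer features by construction and gave 4 of 7 genes called in SE and 5 of 7 in HE. Of all 6810 genes so averaged, 53.9% were called in SE and 48.8% in HE. Leaving out 1 pool gave 7 to 9 of 11 probe sets called in SE, 7 to 8 in HE, and 0 in each comparison of SE with HE, the interaction and blastocysts. Between days, those fits called 43.3% to 48.7% of all probe sets in SE and 32.8% to 39.6% in HE. With the replicate block the counts were 7 in SE and 7 in HE, with 6380 and 5408 of all probe sets called. The labels do not say whether a replicate number marks shared cows or a batch. Under that block the ACLY call in HE (-0.46, adjusted p = 0.0679) and the FDFT1 Bt.21724.1.S1_at call in SE (0.53, adjusted p = 0.0566) were lost, and FDFT1 Bt.21724.2.S1_a_at in HE turned to 0.0365. With only the arrays compared in the fit, ACLY in HE (adjusted p = 0.0942) and FDFT1 in SE (adjusted p = 0.0737) were lost and FDPS in HE was called (-0.67, adjusted p = 0.0443). Leaving out 1 pool, FDFT1 Bt.21724.1.S1_at in HE ranged from -0.110 to 0.0598, FDFT1 Bt.21724.2.S1_a_at in HE from -0.34 to 0.23, and FDPS in SE from -0.388 to 0.0587; the cause was not tested. FDFT1 Bt.21724.2.S1_a_at in SE was called without day 0 SE replicate 3 (0.92, adjusted p = 0.0460). For SE over HE on day 0, 0 to 11 of all probe sets were called over the alternatives, against 3 as reported, and 0 of the genes described.

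Of 34 further small differences in the comparisons of status, 22 turned sign in at least 1 alternative, and the lowest adjusted p was 0.565. Signals near the filter, as for SREBF1 Bt.15667.2.S1_at on day 0 and HMGCS1 Bt.22763.1.S1_at on day 7, lie near the bottom of the scale, and another background correction was not tried. With 2 pools in day 7 HE and in HE blastocysts, 1 pool can decide a value: FDPS in blastocysts ranged from 1.08 to 2.05 when 1 pool was left out.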
